A study of Homo sapiens with 8 samples.

Results

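GATA2 binding was examined around 9 genes of the neuroendocrine and lineage plasticity programme of prostate cancer: SOX2, NEUROD1, INSM1, POU3F2, FOXA2, SRRM4, CHGA, SYP and SCG3. Peaks whose summit lay within 100 kb of the RefSeq span of one of these genes were taken from each of 4 GATA2 peak lists, and peaks overlapping by at least 1 bp were merged over the lists. This gave 49 peaks in 26 regions, out of 36122 regions in the whole series, and 8 of the 9 genes had at least 1 region. The lists come from chromatin immunoprecipitation and sequencing (ChIP-seq) of the transcription factor GATA2 in VCaP, an established human prostate cancer line that grows in castrate conditions. VCaP cells of the JQ1 group (2 lists) were kept without steroids for 72 h with 1 µM JQ1, a blocker of the bromodomains of BET proteins, during the last 24 h. Cells of the untreated group (2 lists) had the same steroid depletion, with the carrier DMSO per the labels' protocol and under a label of no treatment. The study asked how BET inhibition changes the sites that GATA2 occupies. All libraries are of 1 cell line, and the labels do not say whether replicates were separate cultures, so the spread between them may be technical. RNA was not among the measurements, so none of the values below says whether a gene was expressed.

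Prostate adenocarcinoma cells have a luminal identity upheld by androgen receptor, FOXA1 and GATA2. Under treatment some tumours lose this identity and take on neuroendocrine traits, with dense-core granules, vesicle proteins and neural transcription factors. SOX2, NEUROD1, INSM1, POU3F2 and FOXA2 code for transcription factors of that programme, SRRM4 for a splicing factor of neurons, and CHGA, SYP and SCG3 for proteins of granules and vesicles. GATA factors are zinc-finger proteins that bind short DNA motifs around the core GATA, often in enhancers away from gene starts.

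No peak of any list touched a promoter of these genes in the RefSeq promoter table (GRCh38.p14), which held 7 of the 9, all but INSM1 and FOXA2. The GATA motifs GATAA and GATAG, each with an A or a T before it, were searched on both strands of the window from 250 bases before to 50 after each start. Both contain the core GATA and neither occurred in the 7 windows, whereas 4440 of 22199 windows of protein-coding genes held at least 1. The core alone, GATA or its complement TATC, occurred in the 250 bases before the start in 3 of the 7 genes (SOX2, POU3F2 and CHGA) and in 39.8% of all. The 250 bases before the start are shown for the 3 genes below as examples. SOX2 and NEUROD1 have the regions found in all 4 lists, and POU3F2 has a region close by. SRRM4, not shown, also has a region close by, and its 250 bases hold no core. Capitals mark the core, and NEUROD1 has none.
SOX2, chr3:181711675-181711924, plus strand: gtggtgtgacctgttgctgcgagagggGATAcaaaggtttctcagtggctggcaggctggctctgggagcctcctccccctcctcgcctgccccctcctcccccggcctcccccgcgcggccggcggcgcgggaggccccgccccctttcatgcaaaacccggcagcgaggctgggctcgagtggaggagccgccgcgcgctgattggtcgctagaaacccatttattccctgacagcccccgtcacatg
NEUROD1, chr2:181680518-181680767, minus strand: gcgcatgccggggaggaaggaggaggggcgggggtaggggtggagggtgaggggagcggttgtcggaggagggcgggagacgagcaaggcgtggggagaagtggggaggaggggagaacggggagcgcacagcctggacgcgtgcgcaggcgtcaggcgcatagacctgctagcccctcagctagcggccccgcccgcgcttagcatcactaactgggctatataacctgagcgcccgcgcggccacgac
POU3F2, chr6:98834324-98834573, plus strand: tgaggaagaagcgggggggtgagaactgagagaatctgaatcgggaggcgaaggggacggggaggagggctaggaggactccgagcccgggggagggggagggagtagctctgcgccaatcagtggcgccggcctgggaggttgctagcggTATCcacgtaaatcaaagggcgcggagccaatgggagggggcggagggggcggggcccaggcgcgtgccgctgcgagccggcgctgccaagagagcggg
A motif match or its absence in these windows is a description of the letters and says nothing of GATA2 itself.

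The 2 replicates differed in list length far more than the treatments did. The lists held 4974 and 32404 peaks with JQ1 and 6902 and 27373 peaks in untreated cells (replicate 1, then replicate 2 in each). A peak's −log10 q and fold enrichment are the authors' values at its summit within its own list, so they also follow that list's depth. They are set side by side here without a test. Position in a list is given as top per cent by q-value, with the strongest peak near 0.

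SOX2, which codes for an HMG-box factor of stem and neural progenitor cells, had a single GATA2 region, and it was present in all 4 lists. It lay on chromosome 3 at 181716592 to 181716914 (hg38), inside the long non-coding gene SOX2-OT, 4.84 kb downstream of the SOX2 start and 2.33 kb past its span. The 4 summits fell within 42 bp of each other. Its peaks reached a −log10 q of 12.9 and 26.8 with JQ1, against 2.68 and 25.5 in the untreated lists. The fold enrichment was 9.01 and 10.3 with JQ1, against 3.66 and 12.4 in untreated cells. The replicate 2 values were close, whereas in replicate 1 the peak stood at the top 28.3% of the JQ1 list, against the top 95.6% of the untreated list. Only a few reads stand behind this contrast. The pileup at the summit, solved from the deposited values as whole reads, was 19 with JQ1 (95% exact Poisson interval 11.4 to 29.7), against 14 in untreated cells (7.65 to 23.5), and the caller's local background was 1.22, against 3.10 reads. The intervals overlap. They cover counting error only and the pileups are not scaled for depth.

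NEUROD1, a basic helix-loop-helix factor gene of neurons and endocrine cells, had the most regions, 7 in all. They were spread over both sides of the gene, and 4 of the 7 lay between 83.7 and 98.1 kb upstream of its start in a stretch that no protein-coding gene spans. The strongest of these, at 181777762 to 181778073 on chromosome 2, was present in all 4 lists. There the −log10 q came to 13.7 and 72.2 with JQ1, against 4.90 and 68.4 in the untreated lists. By −log10 q it was the strongest peak near any of the 9 genes in each JQ1 list and in untreated replicate 2. In JQ1 replicate 1 its fold enrichment was below that of the SOX2 peak. As at SOX2, its replicate 1 peak ranked higher with JQ1, at the top 25.7%, against the top 81.6% in untreated cells. The pileup there was 29 reads (19.4 to 41.6) with JQ1, against 23 (14.6 to 34.5), over a local background of 3.38, against 5.43 reads. The fold enrichment was 6.85 and 17.3 with JQ1, against 3.73 and 22.4 in untreated cells. At both regions found in all 4 lists the −log10 q was thus higher with JQ1 when lists of the same replicate number were compared. That order was held by 13.9% of the 3236 such regions of the series. By fold enrichment neither kept it, since both were higher with JQ1 in replicate 1 and lower with JQ1 in replicate 2. The lists are matched by number only. Across numbers, JQ1 replicate 1 (12.9 at SOX2 and 13.7 at NEUROD1) was below untreated replicate 2 (25.5 and 68.4).

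The neighbouring NEUROD1 regions went in opposite directions in replicate 2. At 181764126 to 181764378 the −log10 q was 33.0 with JQ1, against 15.3 in untreated cells, and at 181771063 to 181771614 it was 10.3 with JQ1, against 34.7. Neither had a peak in a replicate 1 list. The remaining 4 regions were each in a single list. Those at 39.4 and 62.9 kb from the span were in JQ1 replicate 2 (−log10 q of 6.44 and 4.81), that at 98.1 kb in untreated replicate 2 (5.02) and that at 46.4 kb in untreated replicate 1 (1.56). The regions at 39.4 and 46.4 kb lay inside CERKL, a ceramide kinase-like gene next to NEUROD1.

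**Figure D1:**
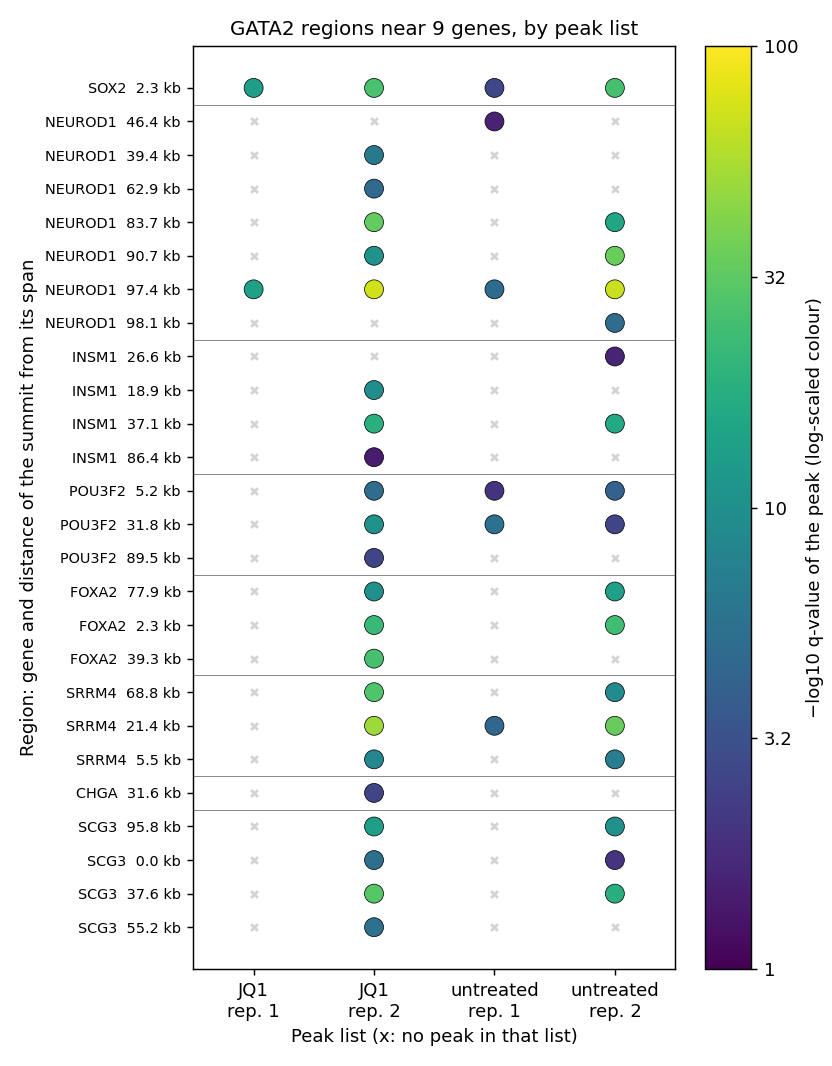
Each row is 1 of the 26 regions, named by gene and by the distance in kb of its summit from the gene span, and each column is a peak list. Colour gives the −log10 q-value on a log scale and a cross marks no peak, and only the SOX2 region and the NEUROD1 region at 97.4 kb are filled in all 4 columns.

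POU3F2, the gene of the neural POU-domain factor also called BRN2, had the other regions that recurred in untreated cells, together with SRRM4. Its region at 98844550 to 98844842 on chromosome 6, 5.21 kb past the span, reached a −log10 q of 5.14 in JQ1 replicate 2, against 1.97 and 4.12 in the untreated lists. The region at 98871131 to 98871449, 31.8 kb from the span and inside the mitochondrial F-box gene FBXL4, had 10.01 in JQ1 replicate 2, against 5.69 and 2.58 in the untreated lists. Both were absent from JQ1 replicate 1. In the untreated lists none of these peaks stood above the top 75.6%, and in JQ1 replicate 2 they stood at the top 82.7% and 57.1%. Another region, 89.5 kb away and also in FBXL4, was in JQ1 replicate 2 only, with a −log10 q of 2.53.

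SRRM4, which codes for the splicing factor that includes neural microexons, had 3 regions, all upstream of its start and none inside its long span. The region 21.4 kb upstream, at 118960005 to 118960281 on chromosome 12, reached a −log10 q of 50.5 in JQ1 replicate 2, against 4.61 and 34.6 in the untreated lists, and no peak in JQ1 replicate 1. At 68.8 kb upstream, within the non-coding gene LOC105370019, the value was 28.1 in JQ1 replicate 2, against 8.99 in untreated replicate 2. At 5.52 kb upstream it was 8.50, against 6.88. These 2 regions had no peak in either replicate 1 list.

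FOXA2, a forkhead pioneer factor gene of endoderm, had 3 regions with no protein-coding gene nearer than itself. The region at 22578597 to 22578892 on chromosome 20, 2.27 kb from the span, reached a −log10 q of 22.3 in JQ1 replicate 2, against 24.5 in untreated replicate 2. That at 77.9 kb had 9.94, against 13.5. The region on the other side, at 22624718 to 22624962 and 39.3 kb away, was in JQ1 replicate 2 alone, with a −log10 q of 25.6 at the top 25.3% of that list, a fold enrichment of 10.1 and a pileup of 37 reads (26.1 to 51.0). It was the strongest of the 26 regions to appear in a single list.

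INSM1, the gene of a zinc-finger repressor that marks neuroendocrine tumours, had 4 regions, and each lay inside a neighbouring gene. The only one in more than 1 list, at 20407936 to 20408165 within the Ral GTPase activator gene RALGAPA2, had a −log10 q of 18.7 in JQ1 replicate 2, against 16.2 in untreated replicate 2. The others were in 1 list each. JQ1 replicate 2 had 9.54 at 18.9 kb from the span, inside CFAP61, and 1.43 at 86.4 kb, inside RALGAPA2. Untreated replicate 2 had 1.60 at 26.6 kb, inside CFAP61.

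Among the granule and vesicle genes, SCG3 had 4 regions, CHGA 1 and SYP none. SCG3 codes for secretogranin III and held the only region inside the span of one of the 9 genes, at 51720241 to 51720443 on chromosome 15, where the −log10 q came to 5.33 in JQ1 replicate 2, against 1.99 in untreated replicate 2. Its strongest region, 37.6 kb away inside the tropomodulin gene TMOD2, had 29.7 with JQ1, against 18.3. The region 95.8 kb upstream, inside DMXL2, had 13.1 with JQ1, against 10.2. A region at 55.2 kb, also inside TMOD2, was in JQ1 replicate 2 only (5.70). No SCG3 region was in a replicate 1 list.

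CHGA, the chromogranin A gene whose product is the standard serum marker of neuroendocrine tumours, had 1 peak, in JQ1 replicate 2, 31.6 kb from its span. Its −log10 q was 2.51, at the top 96.4% of the list, with a pileup of 12 reads (6.20 to 21.0). SYP, which codes for the vesicle protein synaptophysin, shares its window with 9 other protein-coding genes, and the nearest summit of any list was 592 kb from its span.

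**Figure D2:**
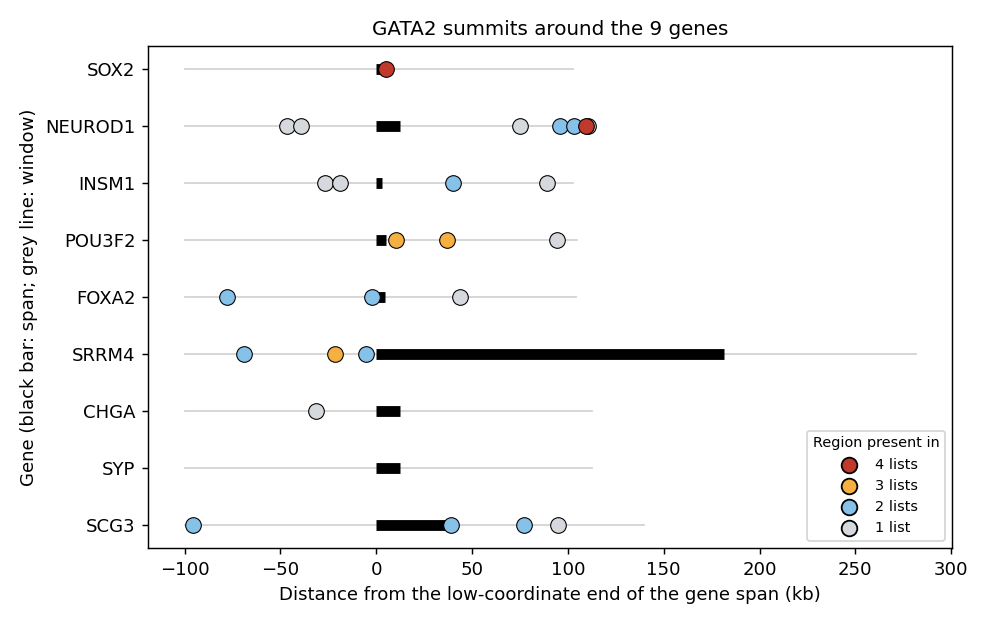
Summits are placed by their distance in kb from the low-coordinate end of each gene span (black bar), along the window searched (grey line), with the colour giving the number of lists that had the region. Most summits lie outside the spans, and SYP has none.

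Most of the 26 regions lay away from the genes they were assigned to. Within 10 kb of the span there were 5, within 50 kb there were 15, and the median distance was 39.4 kb. The gene was the nearest protein-coding gene for 15 regions, while 11 lay inside another protein-coding gene, so assignment by distance does not say which gene a region serves. The 100 kb limit also decides membership. Closest to it on the inside were the NEUROD1 regions at 98.1 and 97.4 kb and the SCG3 region at 95.8 kb. On the outside, a region 101 kb from SCG3 had a −log10 q of 6.56 in untreated replicate 2 alone, and single-list regions lay 104.0 kb from both FOXA2 and NEUROD1, with 5.09 and 4.37 in JQ1 replicate 2. Further out, 105 kb from POU3F2, lay a region at 98944312 to 98944876, whose −log10 q came to 8.91 and 108.4 with JQ1, against no peak and 47.9 in the untreated lists.

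With JQ1, the number of regions near the 9 genes did not differ beyond the spread between replicates. The JQ1 lists had 2 and 23 of the 26 regions, against 6 and 17 in the untreated lists. Of all regions of the series, 13.4% and 85.2% were in the JQ1 lists and 18.6% and 72.6% in the untreated lists. The means were 12.5 ± 14.8 with JQ1 and 11.5 ± 7.78 in untreated cells (SD, n = 2 lists each), and the groups overlap. On the scale of log2(number + 1), JQ1 minus untreated was −0.40 (two-sided exact permutation test, p = 1, where 2 lists against 2 allow no p below 0.33). The sign depends on the scale, since the plain mean was higher with JQ1. The replicates went opposite ways, with −1.22 in replicate 1 and 0.42 in replicate 2. Over all regions of the series, the log2 ratio of JQ1 to untreated came to −0.48 for replicate 1 and to 0.23 for replicate 2. When each list was reduced to its strongest 4974 peaks, the log2 difference turned positive. Only 3 regions were then left, with 2 and 2 in the JQ1 lists, against 0 and 1 in the untreated lists. The log2 difference was 1.08 (exact permutation p = 0.33, the smallest possible). Whole lists could not differ in number of peaks at this setting, since each held 4974 by construction. The difference rests on 3 regions, and regions of the whole series were not counted at equal length. Whether it is particular to the 9 genes was not tested.

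Of the genes, 2 and 8 of the 9 had a peak in the JQ1 lists, against 4 and 7 in the untreated lists (exact permutation p = 1). The shares of all 20037 protein-coding genes with a summit within 100 kb were 27.5% and 73.5% in the JQ1 lists, and 37.7% and 70.4% in the untreated lists. The share of the 9 genes was within 2 genes of that of all genes in each list. A region in all 4 lists was near 2 of the 9, against 21% of all genes. A JQ1 recurrent region, one present in both JQ1 lists, was near 2 of the 9 (27% of all genes), and an untreated recurrent region near 4 of the 9, namely SOX2, NEUROD1, POU3F2 and SRRM4 (36% of all genes).

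By region, presence over the lists was likewise near that of the series, with no test run. Of the 26 regions, 2 were in all 4 lists (8.96% of all regions), 3 in every list except JQ1 replicate 1 (8%), 10 in both replicate 2 lists only (38%) and 11 in a single list (40%). The last group comprised 8 in JQ1 replicate 2 (25.9%), 2 in untreated replicate 2 (13.3%) and 1 in untreated replicate 1 (0.634%). No region was in every list except untreated replicate 1 (3.68%). None of the 26 was present in both lists of a treatment and in neither of the other, a pattern held by 0.377% (JQ1 only) and 0.62% (untreated only) of all regions. All 5 untreated recurrent regions were in JQ1 replicate 2 (96.2% over the series), and 2 of the 5 were in JQ1 replicate 1 (51.1%). In replicate 2, 15 of 17 untreated regions were found with JQ1, or 88.2% (95% Wilson interval 65.7 to 96.7, counting error only), against 80.8% over the series. The other way, 15 of 23 JQ1 regions were found in untreated cells, or 65.2% (44.9 to 81.2), against 68.8% over the series. Both intervals take regions as independent, though several lie near the same gene. At 12 of the 15 regions in both lists the −log10 q was higher with JQ1 (49.3% over the series), and at 9 of 15 the fold enrichment was (44.4%). These regions come from 1 list of each treatment and are not replicates, so whether strength departs from the series was not tested. The pileups of untreated replicate 2 did not solve as whole reads, so its values may rest on scaled reads, and the part of this in these counts was not tested.

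The position of these peaks in their lists differed between the lists. Their median position was the top 27.0% and 57.2% of the JQ1 lists and the top 90.1% and 49.8% of the untreated lists, where the median of a whole list is 50% by construction. All 6 peaks of untreated replicate 1 stood below the middle of that list, between the top 75.6% and 99.2%, while both peaks of JQ1 replicate 1 stood above the middle of theirs. In JQ1 replicate 2, 3 of 24 peaks were in the strongest 20%, those of the NEUROD1 regions at 97.4 and 83.7 kb and the SRRM4 region at 21.4 kb. Untreated replicate 2 had 1 of 17, also at the NEUROD1 region at 97.4 kb (top 7.93%). Each replicate 1 list had 0.

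**Figure D3:**
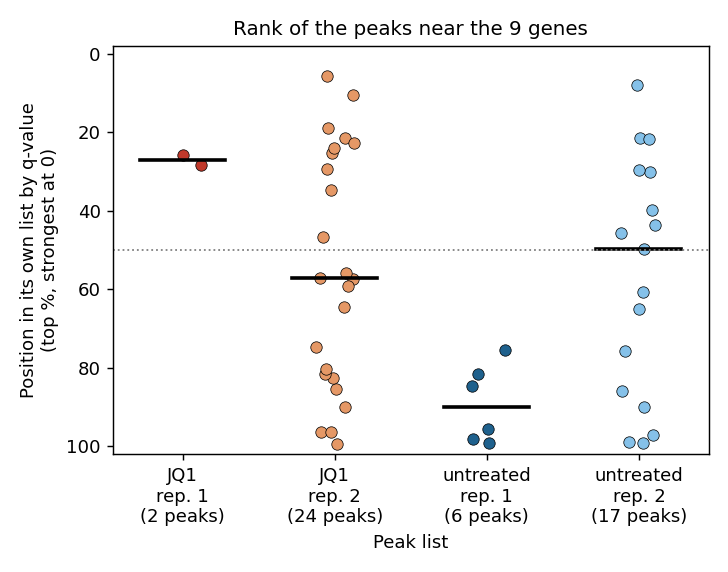
Each point is a peak near one of the 9 genes, placed by its position by q-value in its own list (top %, strongest at the top), with the median as a black bar and the middle of the list dotted. The 6 peaks of untreated replicate 1 all lie below the dotted line and the 2 of JQ1 replicate 1 above it.

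Counts for the related gene lists were of the same order, and those of the androgen-regulated luminal list were higher, with no test run between lists. Among 22 other neuroendocrine transcription factor genes, 19 had a region in some list and 3 had a region in all 4 (NEUROD4, NKX2-2 and INSM2). Near INSM2, a relative of INSM1, the best-ranked of these reached a −log10 q of 26.2 and 132.2 with JQ1, against 18.2 and 109.0 in the untreated lists. Of 24 secretory and neuronal genes, 18 had a region and 7 had one in all 4 lists, led by PCSK1, the gene of a prohormone convertase, with 40.6 and 106.7 with JQ1, against 34.8 and 153.2 in untreated cells. Of 22 lineage plasticity regulators, 21 had a region and 5 had one in all 4 lists, led by ZEB2, a gene of epithelial-mesenchymal transition. Of 20 androgen-regulated luminal genes, 20 had a region and 16 had one in all 4 lists. The neighbours KLK2, KLK3 and KLK4 had the same best region, so the 16 genes do not stand for 16 separate regions. Over all protein-coding genes the shares were 77.5% and 21%. The median number of regions per gene was 3 for the 9 genes, 3, 2 and 3 for the related lists in the order given, 7 for the luminal genes and 2 for all genes. These lists differ in gene length, with a median of 12.2 kb for the 9 genes, 47.4 kb for the luminal genes and 24.1 kb for all, and longer spans give wider windows.

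**Figure D4:**
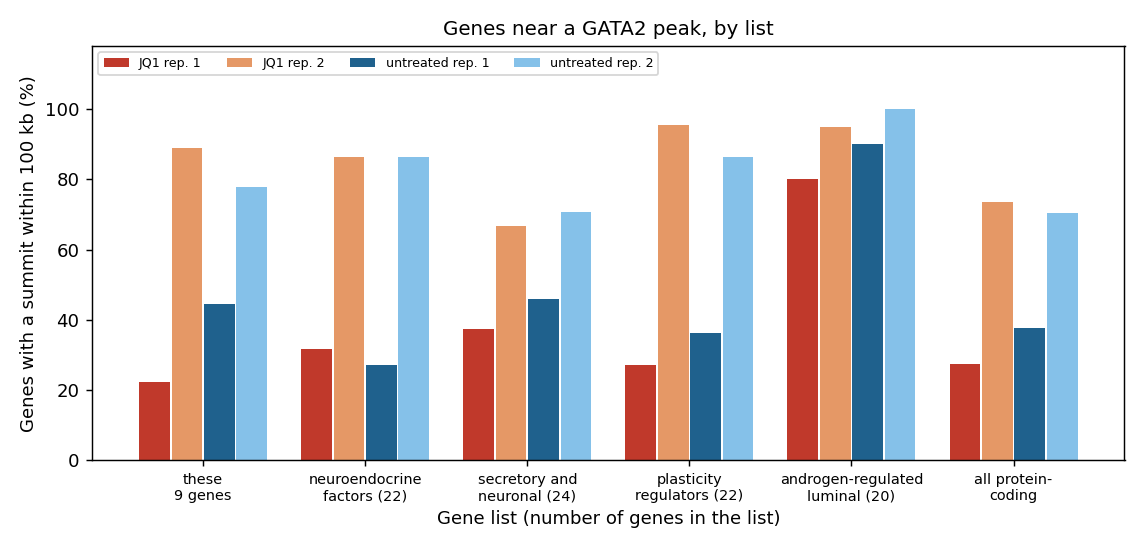
Bars give the percentage of genes in each list of genes with a summit within 100 kb, for the 2 JQ1 and the 2 untreated peak lists. The 9 genes follow the pattern of all protein-coding genes, low in both replicate 1 lists and high in both replicate 2 lists.

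The genes most like NEUROD1 in their numbers of regions per list were RRAS2, NETO1 and SLC18A1. They were 3 of 27 genes, among 19885 more than 1 Mb from the 9 genes, with the same numbers as NEUROD1, 1 and 5 regions with JQ1 and 2 and 4 in untreated cells. They were chosen from the 27 by the strength of their best peak in untreated replicate 2, where the −log10 q was 61.3, 59.8 and 55.0, against 68.4 near NEUROD1.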

How the data were processed

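The submitters' processing notes name Bowtie2, Picard, MACS2 and build hg38, without versions. Each deposited list belongs to 1 GATA2 precipitate, so peaks were called per sample. No separate list was used for the 4 inputs. Each deposited row gives a summit with a whole-number score (not used), a fold enrichment, which is a linear ratio, and a −log10 p-value and −log10 q-value from the authors' caller. The weakest q-values lie just under 0.05. The deposited summit offset is a position and not a measurement.

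Rows on chromosomes 1 to 22, X and Y were kept, which left out 18 rows, and each row counted as 1 peak. Genes came from the RefSeq table of GRCh38.p14, the build of hg38. Overlap was computed with Python 3.11.15, pandas 2.3.3 and SciPy 1.17.1, and merging was tested on simulated data. Numbers per list were compared by an exact two-sided permutation test (6 splits). Pileups were the whole numbers that give both the deposited fold, with a pseudocount of 1, and the deposited −log10 p-value as a Poisson tail, to within 0.001. They were found for the strongest peak of each region near the 9 genes in 3 lists and are not given for untreated replicate 2, where 1 of 17 could be solved. Total reads per library are unknown.

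The 9 genes and the gene lists were chosen with earlier results of these data known. The text names all 9 genes, the gene holding each region, at most 4 genes per list by mean rank of a region in all 4 peak lists, and the 3 genes most like the gene with the most regions. The alternatives were a window of 50 kb, a q-value of 1e-05 or less, summits within 100 bp in place of overlap, lists of equal length, a replicate block and leaving out lists.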

Additional observations from a re-analysis of the deposited data

How the results depend on the processing

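The counts near the 9 genes rest on few peaks and on the long replicate 2 lists. Of 62 alternative values, 33 kept their direction or stayed within 1.5 times of the reported count, 19 moved further and 10 changed direction. Some of the 33 had no or little room to change. A replicate block leaves a mean difference as it is, and leaving out a JQ1 list hardly touches untreated recurrent regions, or the reverse. The tally is therefore no measure of robustness. For the number of regions (log2 difference, JQ1 minus untreated) the direction turned with lists of equal length (1.08) and at a q-value of 1e-05 or less (0.55), and leaving out lists gave −1.9 to 1.1. For the number of genes with a peak (mean difference) it turned to 1.5 and 1 under the same settings, and leaving out lists gave −3.5 to 2.5. By the exact permutation test no setting could reach a p below 0.33, so the p-values are no check of robustness. Lists of equal length left 0 regions in all 4 lists, 0 untreated recurrent and 1 JQ1 recurrent region. At a q-value of 1e-05 or less there were 0 regions in all 4 lists, 0 untreated recurrent and 2 JQ1 recurrent regions. A window of 50 kb, which drops the NEUROD1 region at 97.4 kb, left 1 region in all 4 lists and 1 JQ1 recurrent region. Leaving out lists, with presence then required in the remaining ones only, gave 2 to 15 regions in all lists, 5 to 17 untreated recurrent, 2 to 23 JQ1 recurrent and 1 to 10 separated regions. The upper ends come from leaving out replicate 1 lists. At these settings no shares over all regions of the series were computed. Whether the counts are particular to the 9 genes was therefore not tested. Summits within 100 bp in place of overlap gave 27 regions and changed no call. The replicate numbers are shared only as numbers. With a replicate block the log2 difference was −0.404 and the mean difference in genes −0.5 (exact sign-flip test, p = 1 for both). That test has too few replicates to give a small p. Deviations of same-numbered lists correlated at 0.227 over 36122 regions. Absent peaks counted as 0 there, and both replicate 1 lists are the shorter ones. The correlation therefore cannot show whether same-numbered lists belong together. Pileups of 8 to 80 reads, in the 3 lists that gave them, limit what can be seen at any single region.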
